A study of Homo sapiens with 18 samples.

Results

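The genes described are 9 targets of the transcription factor NRF2 that protect cells from oxidants and reactive electrophiles: NQO1, AKR1B10, AKR1C1, AKR1C2, HMOX1, GCLC, GCLM, TXNRD1 and SRXN1. They were chosen by name, as well-known NRF2 targets, with earlier results of these data known. They are 9 of the 35933 genes with values in the deposited table, where all 9 were found. RNA was sequenced from 3 human breast epithelial lines that form a progression series. MCF10A is a spontaneously immortalized line that does not form tumors, MCF10AT1 carries a mutated HRas that was introduced into it, and MCF10CA1h was obtained by passing MCF10AT1 through xenografts in mice. Each line was sequenced as a negative CRISPR control and as a METTL3 CRISPR knockdown, with 3 replicates (a, b and c) per group and 18 libraries in all. METTL3 is the catalytic subunit of the enzyme that places N6-methyladenosine on messenger RNA. Cells of both arms had received a Cas9 and guide construct with an mCherry marker, the guide of the knockdown arm being directed to exon 1 of METTL3, and were sorted for mCherry over repeated rounds before single cells were grown into clones. The replicates of a knockdown group came from 1 such clonal line. The paper likewise describes a single negative CRISPR line for each cell line. Differences between clones are thus left out of the spread, and the p-values measure the spread between these libraries alone. The labels name polyA RNA while the methods describe total RNA depleted of ribosomal RNA.

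NRF2, encoded by NFE2L2, is held at a low level in unstressed cells by KEAP1, which brings it to a CUL3 ubiquitin ligase for degradation. When oxidants or electrophiles modify KEAP1, or when the autophagy receptor p62, encoded by SQSTM1, occupies it, NRF2 accumulates, pairs with a small MAF protein and binds the antioxidant response element in its target genes. The targets make glutathione, reduce thioredoxin, supply NADPH, break down heme, hold iron and reduce or conjugate quinones and carbonyl compounds. The pathway is known in breast epithelium for handling oestrogen quinones and other reactive metabolites, and in many carcinomas for resistance to oxidative stress and drugs.

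Promoter sequences from RefSeq (GRCh38.p14), the 250 bases before the start of transcription, were at hand for 7 of the 9 genes. HMOX1 and AKR1B10 were not among them. The core of the antioxidant response element, TGACNNNGC on either strand, was found before GCLM and before both starts of TXNRD1, and not in these windows of NQO1, GCLC, SRXN1, AKR1C1 or AKR1C2. Of 35116 promoter windows of the same length, 10.9% hold this core. The windows with a match are shown to place the element, which is in capitals, and a match is a description of the letters, not a bound site. The windows are written along the strand of the gene. Before GCLM, where the first base of the match lies 34 bases before the start, and before the downstream TXNRD1 start, the core is on the opposite strand, so the capitals show its reverse complement. The GCLM window is chr1:93909431-93909680 (minus strand), and those of TXNRD1 are chr12:104215529-104215778 and chr12:104286782-104287031 (plus strand).
GCLM: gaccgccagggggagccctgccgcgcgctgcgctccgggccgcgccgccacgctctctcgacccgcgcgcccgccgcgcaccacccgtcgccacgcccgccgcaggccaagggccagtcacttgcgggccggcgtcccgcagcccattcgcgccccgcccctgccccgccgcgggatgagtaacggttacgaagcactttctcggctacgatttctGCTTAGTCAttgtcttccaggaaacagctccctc
TXNRD1 upstream start: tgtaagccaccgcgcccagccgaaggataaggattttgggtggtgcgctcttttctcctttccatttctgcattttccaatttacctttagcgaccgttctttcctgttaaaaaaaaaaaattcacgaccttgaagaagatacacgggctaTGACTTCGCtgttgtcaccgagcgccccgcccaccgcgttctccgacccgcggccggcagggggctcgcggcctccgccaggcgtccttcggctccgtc
TXNRD1 downstream start: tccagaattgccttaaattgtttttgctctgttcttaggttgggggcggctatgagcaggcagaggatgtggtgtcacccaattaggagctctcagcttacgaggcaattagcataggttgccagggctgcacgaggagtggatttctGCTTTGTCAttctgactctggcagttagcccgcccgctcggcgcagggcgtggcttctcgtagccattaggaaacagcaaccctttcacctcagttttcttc

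The values are counts per gene normalized by the authors with DESeq2, called normalized counts here; they are not scaled by gene length, so levels are compared between groups for 1 gene and not between genes. They summed to between 21347352 and 31681834 per library, and the reads behind each value are unknown, so no counting error is given. METTL3 RNA in the libraries labelled knockdown was 128.1%, 88.54% and 70.85% of the control in MCF10A, MCF10AT1 and MCF10CA1h, and limma passed the threshold in MCF10CA1h alone (adjusted p = 0.618, 0.707 and 0.0234). The labels are therefore used as names, "labelled knockdown", without taking the knockdown as given at the RNA level. The paper reported less METTL3 protein by Western blot in the knockdown lines, moderately so in MCF10CA1h. By RT-PCR it reported a smaller decrease in METTL3 RNA. It also reported significantly lower N6-methyladenosine in MCF10AT1 and MCF10CA1h and a decrease in MCF10A that was not significant. Replicate c of MCF10AT1 stood apart in both arms, with the highest value in both for 26.0% of 16050 genes against 9.41% for replicate a and 12.8% for replicate b. In the labelled knockdown of MCF10AT1, 8 of 12 epithelial markers fell and 6 of 10 tested mesenchymal markers rose. The summed epithelial markers were 26080 to 55170 there against 114100 to 163500 in the control, and the summed mesenchymal markers 119000 to 208200 against 4133 to 5416. All 12 epithelial markers were at 10 or more in every control library of MCF10AT1, and 11 or 10 of them in the controls of MCF10A and MCF10CA1h. In MCF10A, KRT5 alone among the epithelial markers was called (higher) and no mesenchymal marker, and in MCF10CA1h 3 epithelial markers were higher and 1 lower, and 2 mesenchymal markers higher and 1 lower. The part of these markers in the results below was not tested. The defining endothelial markers CDH5 and VWF and the defining leukocyte markers PTPRC and CD3E were at 9.85 or less in every library. Others of these lists were not low: PECAM1 had a mean of 517 in the MCF10AT1 control. CD14 had a mean of 2075 in the MCF10AT1 labelled knockdown, and CD68 of 1139 in the MCF10A control. No endothelial or leukocyte marker was called in MCF10A or MCF10AT1, and 2 were lower (PECAM1 and CD14) and 1 higher (CD68) in MCF10CA1h. In bulk RNA, fewer cells of a type and less RNA per cell cannot be told apart.

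Each line was tested with limma after log2 transformation (pseudocount of 1), and a gene was called at an adjusted p under 0.05. In these fits of each line alone, without a replicate block, none of the 9 genes was called in the labelled knockdown of more than 1 line. In MCF10A, AKR1B10 rose and no other member passed in that fit without the block. In limma on all 18 libraries together, also without the block, the rise of NQO1 in MCF10A passed (adjusted p = 0.025). Libraries with the same replicate letter deviated together in MCF10A. With the letter as a block there, NQO1 (adjusted p = 0.0181 in limma) and GCLC (0.0328) also rose. NQO1 was then called in both MCF10A and MCF10AT1. The block also raised the number called over all genes, as given below. The counts that follow are without it. In MCF10AT1, NQO1, HMOX1 and AKR1C1 rose. In MCF10CA1h, SRXN1 rose. No member was called lower in any line. The 1 of 9 in MCF10A stands beside 2.65% of 15416 genes called in either direction (1.16% higher and 1.49% lower). For MCF10AT1, 3 of 9 members stand beside 13.0% of 16050 genes (7.07% higher and 5.96% lower), and for MCF10CA1h 1 of 9 beside 12.8% of 15127 genes (7.91% higher and 4.85% lower). The median log2 fold change of the 9 members was 0.53, 0.13 and 0.07 in the same order of lines, against medians of all genes of -0.003, 0.02 and -0.02. All 3 libraries of 1 arm lay above all 3 of the other for 5, 4 and 3 members in that order, where 23.9%, 32.8% and 32.7% of all tested genes did so.

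**Figure D1:**
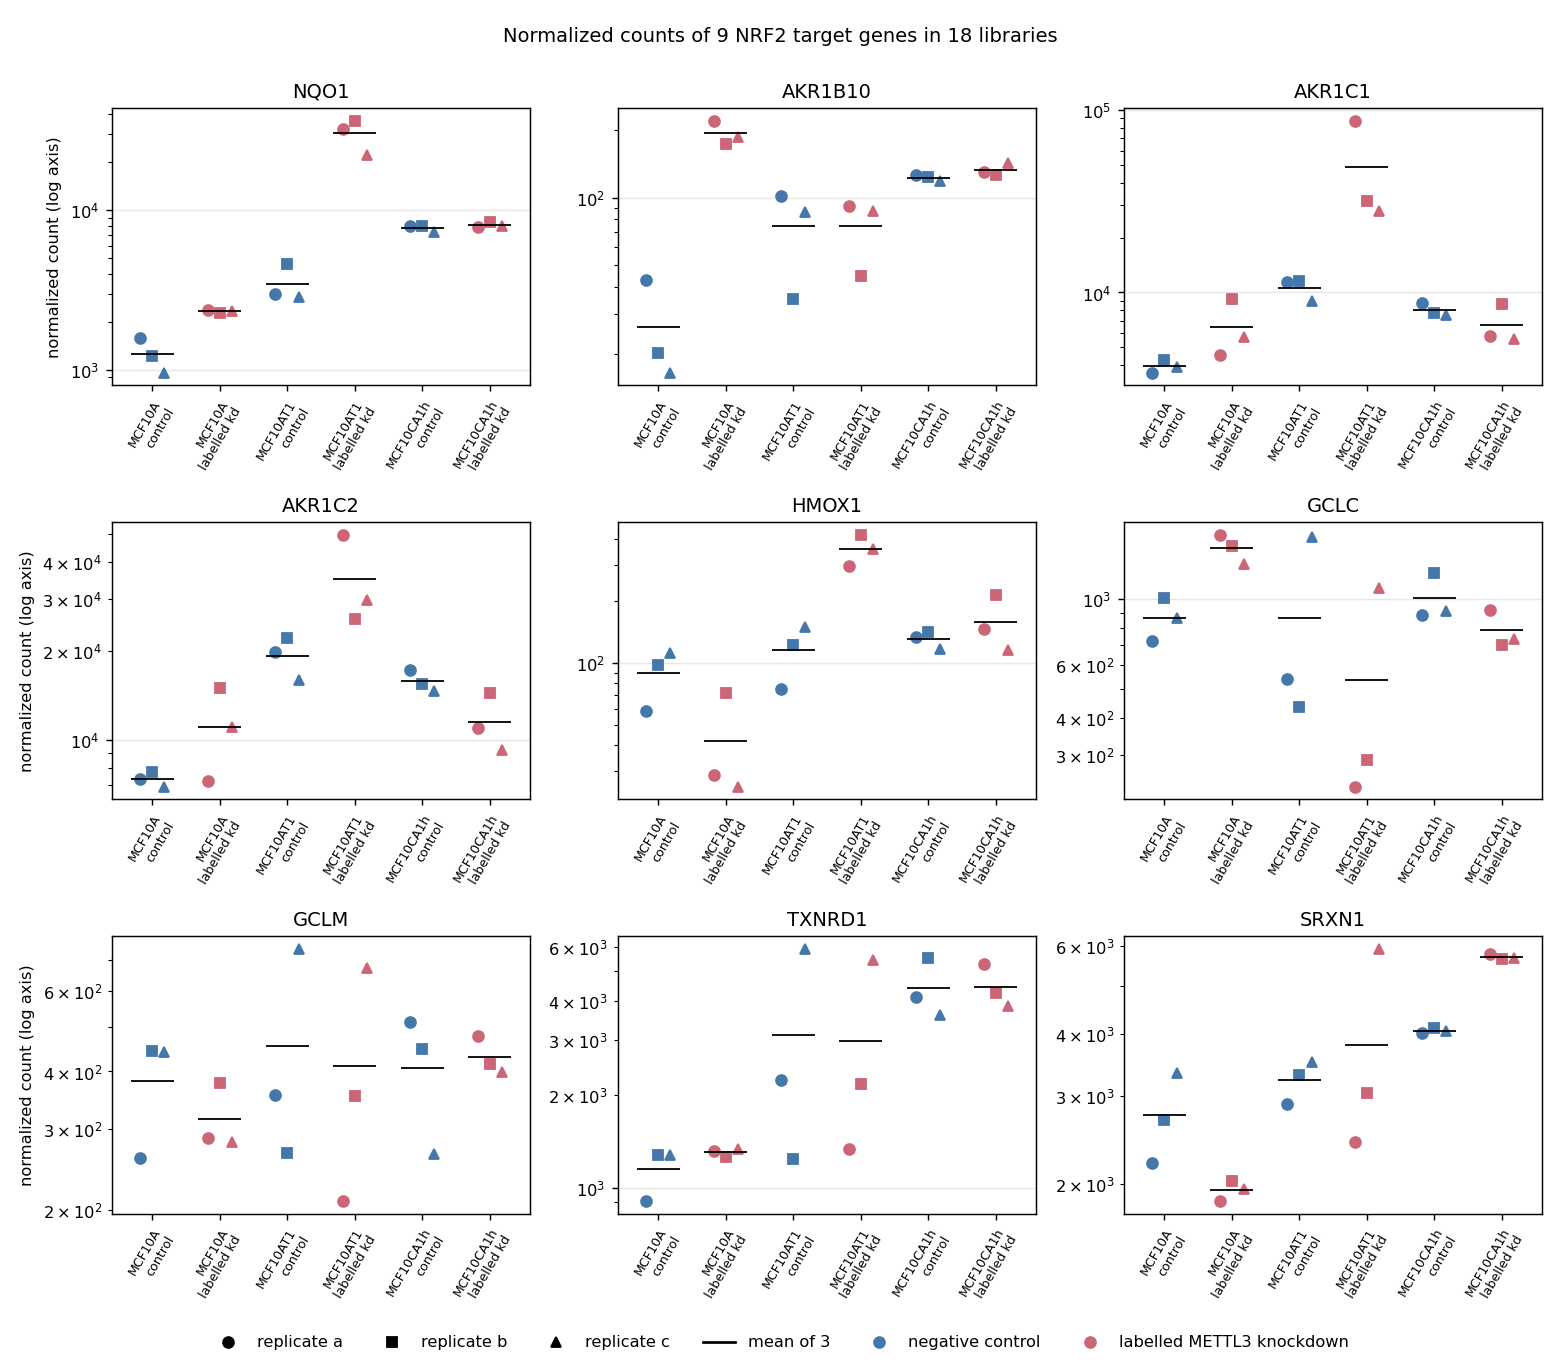
Normalized counts (log axis) of the 9 genes in the 6 groups, with 1 point per library, the replicate letter as the marker shape and a bar at the mean of 3. NQO1 and HMOX1 were highest in the 3 labelled knockdown libraries of MCF10AT1, and AKR1B10 in those of MCF10A.

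NQO1 (ENSG00000181019, chr16:69706996-69726668, minus strand, hg38) encodes NAD(P)H quinone dehydrogenase 1, which reduces quinones to hydroquinones without a radical intermediate and is the classic readout of NRF2. In MCF10A its normalized counts were 1599, 1233 and 961 in control replicates a, b and c and 2363, 2290 and 2358 in the labelled knockdown. All labelled knockdown libraries were above all control libraries, with means of 2337 ± 40.7 and 1265 ± 320 (SD, n = 3). The log2 fold change of 0.92 ± 0.20 (standard error) did not pass the threshold (adjusted p = 0.0518). Libraries with the same letter deviated together in this line, and with the letter as a block the adjusted p was 0.0181. In a limma fit of all 18 libraries without the block, the same difference had an adjusted p of 0.025. In MCF10AT1 the control libraries held 2985, 4599 and 2863 and the labelled knockdown 32436, 36240 and 22163. The lowest labelled knockdown library was thus far above the highest control, and the mean rose 8.70-fold, from 3482 ± 969 to 30279 ± 7282 (SD, n = 3; log2 fold change 3.12 ± 0.32, adjusted p = 0.000524). In MCF10CA1h the control libraries held 7938, 7935 and 7363 and the labelled knockdown 7916, 8425 and 8001. These ranges overlapped, and the log2 fold change was 0.07 ± 0.08 (adjusted p = 0.644). The difference of the knockdown effect between MCF10AT1 and MCF10A was 2.21 ± 0.31 (adjusted p = 6.04e-05), and that between MCF10CA1h and MCF10AT1 was -3.06 ± 0.31 (adjusted p = 2.09e-06). NQO1 in MCF10AT1 and both of these differences kept their call in every alternative that was run.

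AKR1B10 (ENSG00000198074, chr7:134527567-134541412, plus strand, hg38) is an aldo-keto reductase that reduces aldehydes, among them retinaldehyde and lipid peroxidation products. In the MCF10A controls it was near the bottom of the tested range, at 42.9, 20.1 and 16.4, and in the labelled knockdown at 221, 175 and 187. All labelled knockdown libraries were above all controls, with means of 194 ± 23.7 and 26.5 ± 14.3 (SD, n = 3). This was the largest log2 fold change among the 9 members in that line, 2.94 ± 0.39 (adjusted p = 0.0126). The adjusted p was above 0.05 without control replicate b (0.0543), without labelled knockdown replicate a (0.0633) or c (0.0668), and with no filter on low values (0.0911). In MCF10AT1 the values were 101, 35.1 and 86.6 in the control and 91.6, 44.7 and 87.6 in the labelled knockdown. In MCF10CA1h they were 126, 124 and 119 against 130, 126 and 143. The effect in MCF10A differed from that in MCF10AT1 (by -2.87 ± 0.57 for MCF10AT1 minus MCF10A, adjusted p = 0.00169) and from that in MCF10CA1h (by -2.83 ± 0.57 for MCF10CA1h minus MCF10A, adjusted p = 0.00773). The labelled knockdown of MCF10A had a higher mean than that of MCF10CA1h, and this difference did not pass the threshold (adjusted p = 0.294).

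AKR1C1 and AKR1C2 encode hydroxysteroid dehydrogenases that reduce progesterone and dihydrotestosterone and also xenobiotic carbonyls. AKR1C1 (ENSG00000187134) lies at chr10:4963253-4983283 on the plus strand, AKR1C2 (ENSG00000151632) at chr10:4987775-5018031 on the minus strand and AKR1C3 at chr10:5035354-5107686 on the plus strand (hg38). In MCF10AT1, AKR1C1 was at 11344, 11532 and 8971 in the control and at 87164, 31670 and 28023 in the labelled knockdown. The groups did not overlap, although replicate a of the labelled knockdown was 3.11 times as high as replicate c. The log2 fold change was 2.01 ± 0.45 (adjusted p = 0.0211), and the adjusted p was above 0.05 without control replicate a (0.0796) or labelled knockdown replicate b (0.0512) and with no filter on low values (0.142). AKR1C2 in MCF10AT1 was at 19812, 22136 and 15958 in the control and at 49561, 25698 and 29719 in the labelled knockdown. The groups did not overlap, and the log2 fold change of 0.81 ± 0.34 did not pass in the fit of this line (adjusted p = 0.164). In a limma fit of all 18 libraries the same difference passed (adjusted p = 0.0268).

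In MCF10A, AKR1C1 was at 3627, 4284 and 3913 in the control and at 4536, 9205 and 5713 in the labelled knockdown, which did not overlap but spread widely (log2 fold change 0.66 ± 0.25, adjusted p = 0.208). AKR1C2 was at 7367, 7761 and 6909 against 7253, 14934 and 11006 there, with overlapping ranges (log2 fold change 0.53 ± 0.25, adjusted p = 0.304). In MCF10CA1h the log2 fold changes of both genes were below 0. AKR1C1 was at 8769, 7697 and 7536 in the control and 5808, 8647 and 5563 in the labelled knockdown (log2 fold change -0.29 ± 0.16, adjusted p = 0.259). AKR1C2 was at 17213, 15454 and 14636 against 10916, 14351 and 9255, with every labelled knockdown library below every control and a log2 fold change of -0.48 ± 0.15 that did not pass (adjusted p = 0.0592). The difference of the effect between MCF10CA1h and MCF10AT1 passed for both, at -2.30 ± 0.48 for AKR1C1 (adjusted p = 0.0028) and -1.29 ± 0.37 for AKR1C2 (adjusted p = 0.0245). For AKR1C1, MCF10AT1 minus MCF10A was 1.36 ± 0.48, with an adjusted p of 0.055 without the block and 0.0185 with the replicate letter as a block within each line.

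The AKR1C genes are close paralogs, which matters for how reads are assigned. Of the words of 31 bases in the canonical transcript (GENCODE v44), 28.5% of AKR1C1 are found in AKR1C2 and 58.2% of AKR1C2 in AKR1C1, while AKR1C3 shares 18.3% and 18.9% of its words with them. Their promoter windows are alike as well, with 245 of 250 bases identical in an alignment, and are shown for that reason. The AKR1C1 window is chr10:4963165-4963414 (plus strand) and the AKR1C2 window chr10:5003858-5004107 (minus strand). No core of the antioxidant response element was found in either, so no letters are in capitals.
AKR1C1: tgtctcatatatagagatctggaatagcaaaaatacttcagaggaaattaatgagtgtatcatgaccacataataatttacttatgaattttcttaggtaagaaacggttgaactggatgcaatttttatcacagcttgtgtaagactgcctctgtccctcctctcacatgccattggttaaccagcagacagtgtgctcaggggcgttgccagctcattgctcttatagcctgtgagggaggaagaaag
AKR1C2: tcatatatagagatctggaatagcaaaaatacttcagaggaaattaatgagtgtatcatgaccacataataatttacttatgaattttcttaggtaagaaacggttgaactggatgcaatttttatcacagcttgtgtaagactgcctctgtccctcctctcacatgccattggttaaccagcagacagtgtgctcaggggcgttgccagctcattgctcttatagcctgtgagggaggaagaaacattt

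The ratio of AKR1C1 to AKR1C2 normalized counts, examined after the values had been seen and given without a test, was 1.76, 1.23 and 0.943 in the labelled knockdown of MCF10AT1 and between 0.492 and 0.625 in the other 15 libraries. Reads can be split among AKR1C1, AKR1C2 and AKR1C3, so their normalized counts were also summed. How far this sum still depends on the split was not tested. The sum was 37568, 39777 and 29643 in the MCF10AT1 control and 157954, 71008 and 71529 in the labelled knockdown. These ranges did not overlap, and the log2 fold change of the sum was 1.39 with an adjusted p of 0.0558, which did not pass, while AKR1C1 counted alone did. For MCF10CA1h minus MCF10AT1 the summed difference was -1.81 (adjusted p = 0.00441). AKR1C3, a hydroxysteroid dehydrogenase that also makes prostaglandin F, rose in MCF10AT1 (log2 fold change 1.48 ± 0.29, adjusted p = 0.0128), fell by 0.49 ± 0.10 on the log2 scale in MCF10CA1h (adjusted p = 0.01) and was at 0.73 ± 0.29 in MCF10A (adjusted p = 0.22).

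**Figure D2:**
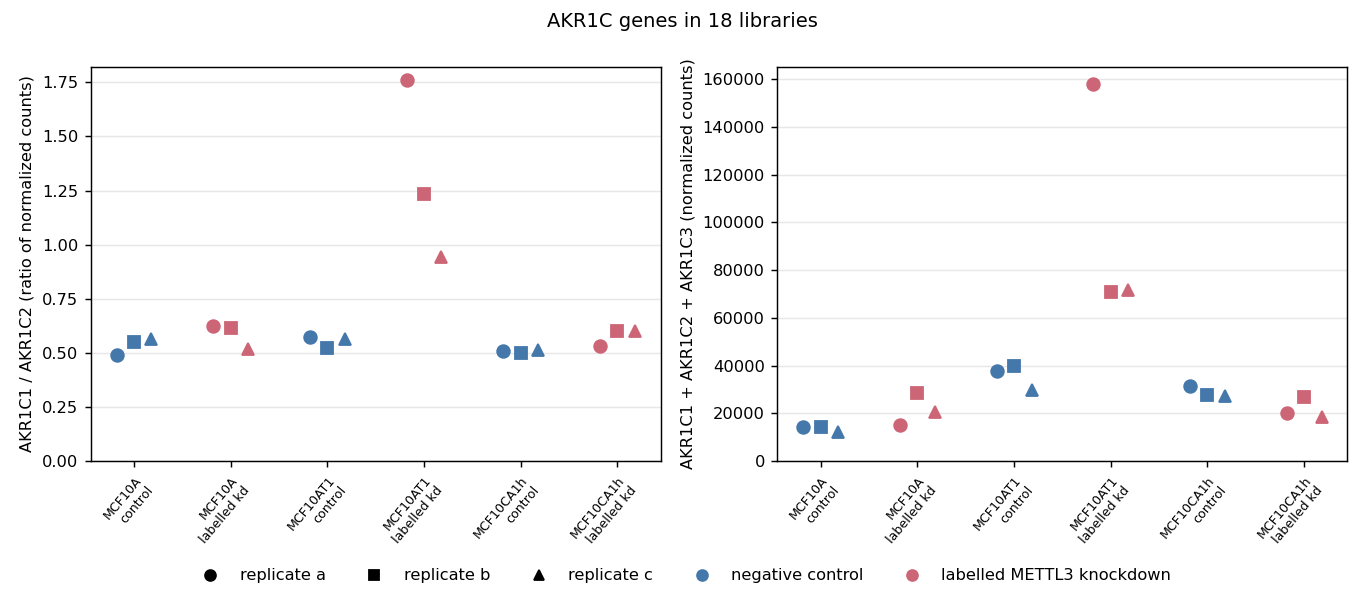
The ratio of AKR1C1 to AKR1C2 normalized counts (left) and the sum of AKR1C1, AKR1C2 and AKR1C3 (right) in each library of the 6 groups, on linear axes from 0. The 3 labelled knockdown libraries of MCF10AT1 lie at 0.943 to 1.76 in the ratio, above the other 15 at 0.492 to 0.625.

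HMOX1 (ENSG00000100292, chr22:35380361-35394214, plus strand, hg38) encodes heme oxygenase 1, which opens heme into biliverdin, carbon monoxide and iron and is repressed by BACH1 as well as induced by NRF2. In MCF10AT1 it was at 74.9, 122 and 151 in the control and at 296, 420 and 361 in the labelled knockdown. All labelled knockdown libraries were above all controls, with means of 359 ± 62.3 and 116 ± 38.3 (SD, n = 3). The log2 fold change was 1.67 ± 0.38 (adjusted p = 0.0235). The adjusted p was above 0.05 in 6 alternatives that keep the threshold: without control replicate a (0.1), without labelled knockdown replicate a (0.0532), b (0.131) or c (0.0592), with no filter (0.0678) and with equal sums per library (0.0631). In MCF10A the values were 58.7, 97.7 and 112 in the control and 28.7, 72.0 and 25.1 in the labelled knockdown, with overlapping ranges and a log2 fold change of -1.19 ± 0.47 that did not pass (adjusted p = 0.222). In MCF10CA1h they were 134, 142 and 117 against 146, 215 and 116 (log2 fold change 0.23 ± 0.24, adjusted p = 0.58). The difference of the effect between MCF10AT1 and MCF10A was 2.85 ± 0.55 (adjusted p = 0.00131), and it passed in every alternative run. MCF10CA1h minus MCF10AT1 gave -1.44 ± 0.55 (adjusted p = 0.0844).

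GCLC and GCLM encode the catalytic and the modifier subunit of glutamate-cysteine ligase, the rate-limiting enzyme of glutathione synthesis. GCLC (ENSG00000001084) lies at chr6:53497341-53616970 and GCLM (ENSG00000023909) at chr1:93885199-93909456, both on the minus strand (hg38). In MCF10A, GCLC was at 722, 1009 and 861 in the control and at 1641, 1502 and 1309 in the labelled knockdown. The groups did not overlap, and the log2 fold change of 0.79 ± 0.18 had an adjusted p of 0.0608 without the block and 0.0328 with the replicate letter as a block. GCLM in MCF10A was at 260, 442 and 440 against 287, 377 and 281, with overlapping ranges (log2 fold change -0.24 ± 0.26, adjusted p = 0.675). The partners of the enzyme thus showed values on opposite sides of 0, neither past the threshold without the block.

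In MCF10AT1 the values of both subunits were high in replicate c of each arm. GCLC was at 540, 433 and 1611 in the control and at 234, 288 and 1087 in the labelled knockdown, and GCLM at 355, 266 and 740 against 209, 353 and 671. Replicate c was the highest of its group each time, and the arms overlapped (log2 fold change -0.78 ± 0.68 for GCLC, adjusted p = 0.502, and -0.16 ± 0.53 for GCLM, adjusted p = 0.872). Letter by letter, GCLC was lower in the labelled knockdown for a, b and c, and GCLM for a and c. With the letter as a block in limma, the adjusted p was 0.0649 for GCLC and 0.749 for GCLM, neither past the threshold. The letters were not taken as pairs in this line. In MCF10CA1h, GCLC was at 886, 1222 and 914 against 920, 701 and 735 (log2 fold change -0.35 ± 0.16, adjusted p = 0.17), and GCLM at 512, 447 and 264 against 478, 415 and 399 (log2 fold change 0.13 ± 0.22, adjusted p = 0.752). The ranges of both genes overlapped there.

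TXNRD1 and SRXN1 serve the thioredoxin side of the response. TXNRD1 (ENSG00000198431, chr12:104215779-104350307, plus strand, hg38) encodes the cytosolic thioredoxin reductase, a selenoprotein that recharges thioredoxin with electrons from NADPH, and SRXN1 (ENSG00000271303, chr20:646615-653200, minus strand, hg38) encodes sulfiredoxin, which repairs overoxidized peroxiredoxins. SRXN1 in MCF10CA1h was at 4014, 4120 and 4049 in the control and at 5785, 5666 and 5672 in the labelled knockdown. The replicates lay close together and the groups did not overlap, so that a rise of 1.41-fold passed (log2 fold change 0.49 ± 0.08, adjusted p = 0.00347). In a fit of all 18 libraries, which takes 1 estimate of the spread for all lines, the same difference had an adjusted p of 0.513. In MCF10A, SRXN1 was at 2204, 2685 and 3339 against 1847, 2030 and 1948, with every labelled knockdown library below every control (log2 fold change -0.48 ± 0.18, adjusted p = 0.198). In MCF10AT1 it was at 2899, 3303 and 3514 against 2427, 3038 and 5923, with overlapping ranges (log2 fold change 0.13 ± 0.36, adjusted p = 0.853). The difference of the effect between MCF10CA1h and MCF10A was 0.97 ± 0.34, with an adjusted p of 0.123 without the block and 0.0457 with the letter as a block within each line.

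TXNRD1 overlapped between the arms in all 3 lines. It was at 907, 1272 and 1277 in the control of MCF10A and at 1316, 1254 and 1333 in the labelled knockdown (log2 fold change 0.19 ± 0.18, adjusted p = 0.618). In MCF10AT1 it was at 2234, 1238 and 5899 against 1335, 2163 and 5428 (log2 fold change -0.02 ± 0.66, adjusted p = 0.989), with replicate c more than 3 times the mean of a and b in both arms. In MCF10CA1h it was at 4121, 5521 and 3602 against 5289, 4239 and 3859 (log2 fold change 0.03 ± 0.16, adjusted p = 0.934).

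**Figure D3:**
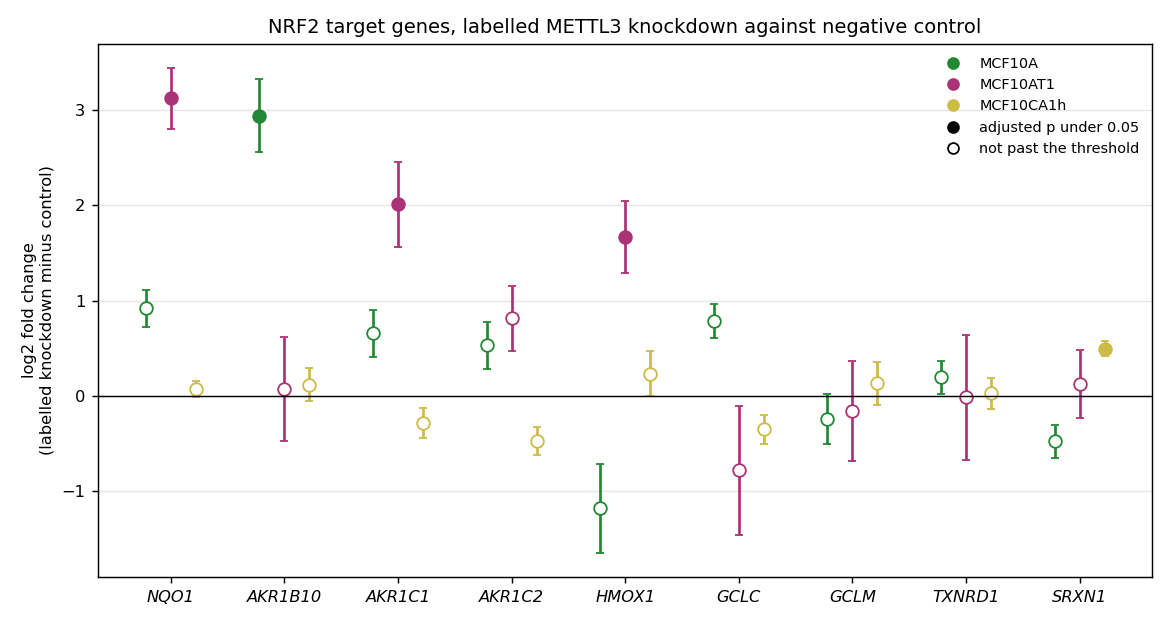
Log2 fold change of the labelled knockdown against the control for the 9 genes in the 3 lines, with the standard error as the bar and filled points where the adjusted p was under 0.05. The filled points are AKR1B10 in MCF10A, NQO1, AKR1C1 and HMOX1 in MCF10AT1 and SRXN1 in MCF10CA1h, and the widest bars belong to GCLC, GCLM, TXNRD1 and AKR1B10 in MCF10AT1.

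The effects of the labelled knockdown were set against each other in 1 fit of the 18 libraries. Between MCF10AT1 and MCF10A, 3 of 9 members differed (NQO1, HMOX1 and AKR1B10), beside 21.6% of 15897 genes. Between MCF10CA1h and MCF10A, 1 of 9 differed (AKR1B10), beside 5.34%. Between MCF10CA1h and MCF10AT1, 3 of 9 differed (NQO1, AKR1C1 and AKR1C2), beside 18.2%. Over the 3 pairs of lines 5 of 9 members were called at least once, beside 28.8% of all genes. With the replicate letter as a block within each line, the counts for the single pairs of lines were 5, 4 and 4. This also blocks MCF10AT1 and MCF10CA1h, where the letters were not taken as pairs. The shares of all genes above are without the block. No share with it is given, so the gain in calls is not read as a result about the members. The calls gained for MCF10AT1 minus MCF10A were GCLC, at -1.57 (adjusted p = 0.116 without the block and 0.00222 with it), and AKR1C1. For MCF10CA1h minus MCF10A they were SRXN1, NQO1 at -0.85 (adjusted p = 0.134 and 0.0412) and GCLC at -1.14 (adjusted p = 0.437 and 0.0362). For MCF10CA1h minus MCF10AT1 the call gained was HMOX1 (adjusted p = 0.0844 and 0.041). GCLC, GCLM, SRXN1 and TXNRD1 were not called in any of the 3 without the block.

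Replicate c of MCF10AT1 did not stand apart in all members. GCLC, GCLM, SRXN1 and TXNRD1 had their highest value in replicate c of both arms, 4 of 9 members beside 26.0% of all genes. Replicate c was 3.31 times the mean of replicates a and b for GCLC in the control and 4.17 times in the labelled knockdown, and for TXNRD1 the ratios were 3.40 and 3.10. For NQO1 they were 0.755 and 0.645, and for AKR1C1 0.784 and 0.472, and none of the 3 members that rose in this line was highest in replicate c of both arms. NFE2L2 itself was at 2154, 974 and 2880 in the control and 807, 915 and 2685 in the labelled knockdown. In a fit of MCF10AT1 with replicates a and b alone, chosen after the data were seen, the same 3 members passed, NQO1 at 3.21 (adjusted p = 0.000721), HMOX1 at 1.87 (adjusted p = 0.0301) and AKR1C1 at 2.20 (adjusted p = 0.0205). GCLC was at -0.89 in that fit (adjusted p = 0.124), SRXN1 at -0.19 and TXNRD1 at 0.03, the last pair with the sign turned. What sets replicate c apart was not tested.

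**Figure D4:**
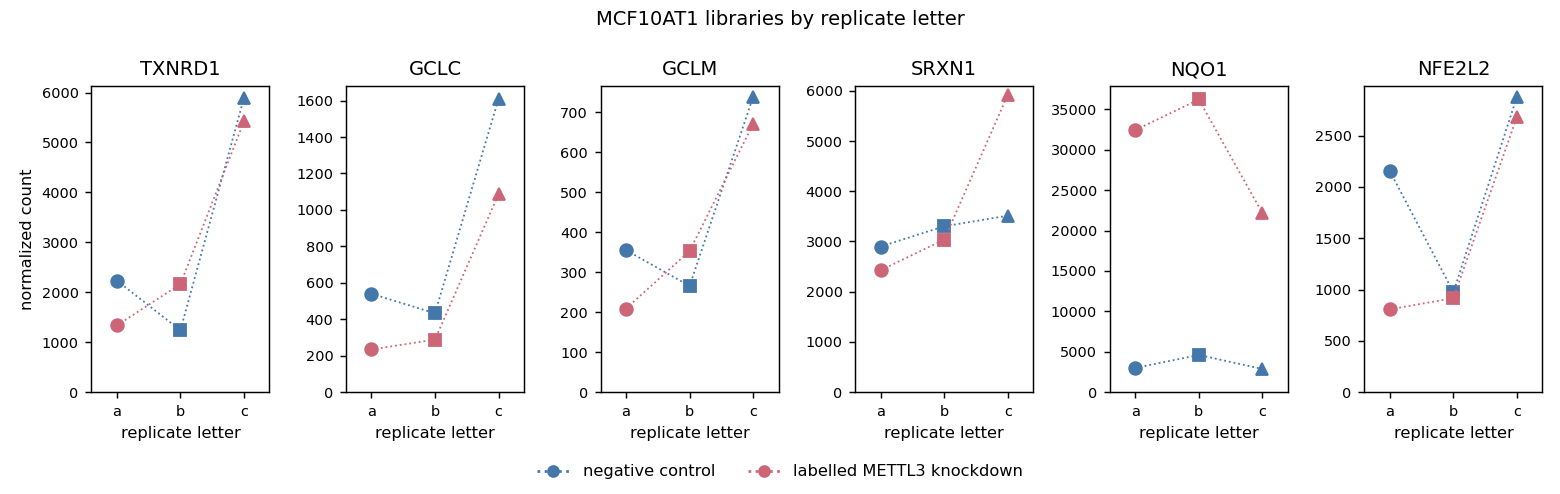
Normalized counts (linear axes from 0) of TXNRD1, GCLC, GCLM, SRXN1, NQO1 and NFE2L2 in the MCF10AT1 libraries by replicate letter, with dotted lines joining the libraries of 1 arm as a guide. In TXNRD1, GCLC, GCLM, SRXN1 and NFE2L2 replicate c is the highest of both arms, while NQO1 is separated by arm, at 2863 to 4599 in the control and 22163 to 36240 in the labelled knockdown.

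The negative controls give the level of the 9 genes in a single negative CRISPR line of each cell line of the progression series. Differences between the cell lines and between these single CRISPR lines cannot be told apart. MCF10A had the lowest mean of the 3 controls for 8 of the 9 members, GCLC being the exception (864 in MCF10A and 861 in MCF10AT1). Against MCF10A, 4 of 9 members were called in MCF10AT1, all higher, beside 28.1% of 15652 genes called in either direction and 13.3% called higher. In MCF10CA1h, 6 of 9 were called against MCF10A, all higher, beside 37.8% and 19.0%. Between MCF10CA1h and MCF10AT1 only NQO1 was called, higher in MCF10CA1h, beside 21.8% and 11.0%. NQO1 rose at each step, from 1265 in MCF10A to 3482 in MCF10AT1 (log2 fold change 1.46 ± 0.24, adjusted p = 0.00449) and 7745 in MCF10CA1h (1.19 ± 0.24 against MCF10AT1, adjusted p = 0.00877). Its control libraries did not overlap between any pair of lines.

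AKR1C1 and AKR1C2 rose from MCF10A to MCF10AT1 (log2 fold changes of 1.42 ± 0.17 and 1.38 ± 0.18, adjusted p = 0.00101 and 0.0013). The MCF10CA1h controls were 1.02 ± 0.17 and 1.10 ± 0.18 above MCF10A (adjusted p = 0.00211 and 0.00171). AKR1B10 was 1.44 ± 0.48 higher in MCF10AT1, where the libraries overlapped with those of MCF10A (adjusted p = 0.0485, a call lost in 12 of 21 alternatives), and 2.29 ± 0.48 higher in MCF10CA1h (adjusted p = 0.00554). TXNRD1 and SRXN1 were called in MCF10CA1h against MCF10A, at 1.93 ± 0.47 (adjusted p = 0.0114) and 0.59 ± 0.19 (adjusted p = 0.0347, a call lost in 10 of 21 alternatives). HMOX1, GCLC and GCLM were not called between any pair of controls. For GCLM the control means were 381, 454 and 408 in MCF10A, MCF10AT1 and MCF10CA1h, with log2 differences of at most 0.16 beside standard errors of 0.42.

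With the 6 groups put in order by their mean log2 value, 7 of the 45 pairs of neighbours differed past the threshold in a fit of all 18 libraries, beside 8.4% of such pairs over all genes. NQO1 had 3 of them. Its order ran from the MCF10A control to the MCF10A labelled knockdown, the MCF10AT1 control, the MCF10CA1h control, the MCF10CA1h labelled knockdown and the MCF10AT1 labelled knockdown. The neighbours that did not differ were the MCF10A labelled knockdown and the MCF10AT1 control (adjusted p = 0.0613) and the groups of MCF10CA1h (adjusted p = 0.984). For HMOX1 the MCF10A labelled knockdown was lowest and the MCF10AT1 labelled knockdown highest, and the step to that group from the MCF10CA1h labelled knockdown was the only one past the threshold (adjusted p = 0.0209). AKR1C1 and AKR1C2 shared 1 order, from the MCF10A control through the MCF10A labelled knockdown, the MCF10CA1h labelled knockdown, the MCF10CA1h control and the MCF10AT1 control to the MCF10AT1 labelled knockdown, and only the last step passed for each (adjusted p = 0.00025 and 0.0268). For AKR1B10 only the first step, from the MCF10A control to the MCF10AT1 control, passed (adjusted p = 0.0121). No neighbours differed for GCLC, GCLM, SRXN1 or TXNRD1. The order of GCLC began with the groups of MCF10AT1 and ended with the labelled knockdown of MCF10A, and that of SRXN1 and TXNRD1 began with the groups of MCF10A and ended with those of MCF10CA1h.

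Of the regulators of the pathway, 2 of 13 tested were called in MCF10AT1 (SQSTM1 and CUL3) and 2 of 14 in MCF10CA1h (SQSTM1 and GSK3B), beside 13.0% and 12.8% of all genes. None of 14 was called in MCF10A, where 2 had an unadjusted p under 0.05 in limma, beside 2.65% of all genes called. NFE2L2, the gene of NRF2, was at 2919, 3008 and 4016 in the MCF10A control and 5762, 3828 and 5659 in the labelled knockdown (log2 fold change 0.61 ± 0.21, adjusted p = 0.172). It was at -0.54 ± 0.55 in MCF10AT1 (adjusted p = 0.574) and -0.31 ± 0.11 in MCF10CA1h (adjusted p = 0.0917), where the libraries did not overlap. KEAP1 was at 0.03, 0.73 and -0.11 in the 3 lines, with adjusted p of 0.958, 0.225 and 0.587. In MCF10AT1, SQSTM1 rose from 8837, 6175 and 7715 to 21039, 24405 and 34259 (log2 fold change 1.80 ± 0.30, adjusted p = 0.0059), and CUL3, the scaffold of the ligase that KEAP1 recruits, fell from 1331, 1148 and 1157 to 567, 235 and 615 (log2 fold change -1.48 ± 0.40, adjusted p = 0.045). In MCF10CA1h, SQSTM1 rose by 0.61 ± 0.09 (adjusted p = 0.00273) and GSK3B, a kinase that marks NRF2 for degradation without KEAP1, by 0.63 ± 0.11 (adjusted p = 0.00576) on the log2 scale. SQSTM1 is itself an NRF2 target.

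Another 54 known NRF2 targets were looked up, of which 52 were in the table. In MCF10A, 47 were tested, 2 were higher and 1 lower, with a median log2 fold change of -0.04. ALDH3A1, an aldehyde dehydrogenase, rose by 2.36 ± 0.46 (adjusted p = 0.0406), UGT1A6, a glucuronosyltransferase, rose by 2.30 ± 0.35 (adjusted p = 0.0172), and glutaredoxin (GLRX) fell by 1.34 ± 0.22 (adjusted p = 0.0244) on the log2 scale. In MCF10AT1, 48 were tested, 12 were higher and 3 lower, with a median of 0.51. In MCF10CA1h, 48 were tested, 7 were higher and 3 lower, with a median of 0.11. The shares called in either direction over all genes were 2.65%, 13.0% and 12.8%. Scaling every library to the same sum moved the median of all genes in MCF10AT1 from 0.02 to -0.15, and the list was then 11 higher and 3 lower with a median of 0.34.

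In MCF10AT1 the called targets came from all 5 groups of the list. Of 20 tested detoxification and export genes 7 rose and 2 fell. ALDH3A1 rose from 452, 252 and 346 to 16910, 11850 and 5682 (log2 fold change 4.94 ± 0.43, adjusted p = 0.000251), and ABCC2, an exporter of glutathione conjugates, by 3.23 ± 0.28 (adjusted p = 0.000239). UGT1A6 and CYP4F11 were lower, at means of 2.5 against 83.3 and 1.29 against 46.4. The other called genes of that group were all higher, AKR1B1 and AKR1C3 among them. Among 11 glutathione genes GLRX alone rose (3.71 ± 0.35, adjusted p = 0.000346), and among 5 thioredoxin genes OSGIN1 alone. In the group of NADPH supply IDH1, an isocitrate dehydrogenase, fell by 1.41 ± 0.28 (adjusted p = 0.0128). Of 6 heme and iron genes the ferritin light chain FTL (2.24 ± 0.32, adjusted p = 0.00275) and the heme transporter SLC48A1 (1.62 ± 0.32, adjusted p = 0.0121) rose. Epithelial and mesenchymal markers moved with this comparison, as given above.

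In MCF10CA1h, FTH1, the ferritin heavy chain, rose by 0.87 ± 0.09 (adjusted p = 0.000265) and FTL by 0.59 ± 0.15 (adjusted p = 0.0299), OSGIN1 by 1.26 ± 0.20 (adjusted p = 0.0031) and CYP4F11 by 1.44 ± 0.27 (adjusted p = 0.00685). GPX2 fell by 1.40 ± 0.19 (adjusted p = 0.00117) and ALDH3A1 by 1.14 ± 0.16 (adjusted p = 0.00179). GLRX, AKR1B1 and PTGR1 were higher and AKR1C3 lower. Of the 6 NADPH supply genes none was called in MCF10CA1h, where limma gave 2 of them an unadjusted p under 0.05. ALDH3A1 was thus called higher in MCF10A and MCF10AT1 and lower in MCF10CA1h, and GLRX lower in MCF10A and higher in the other lines. In the fit of 18 libraries the effect on ALDH3A1 was 6.08 ± 0.60 lower in MCF10CA1h than in MCF10AT1 (adjusted p = 1.92e-06), and that on GLRX 5.05 ± 0.36 higher in MCF10AT1 than in MCF10A (adjusted p = 5.22e-08).

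**Figure D5:**
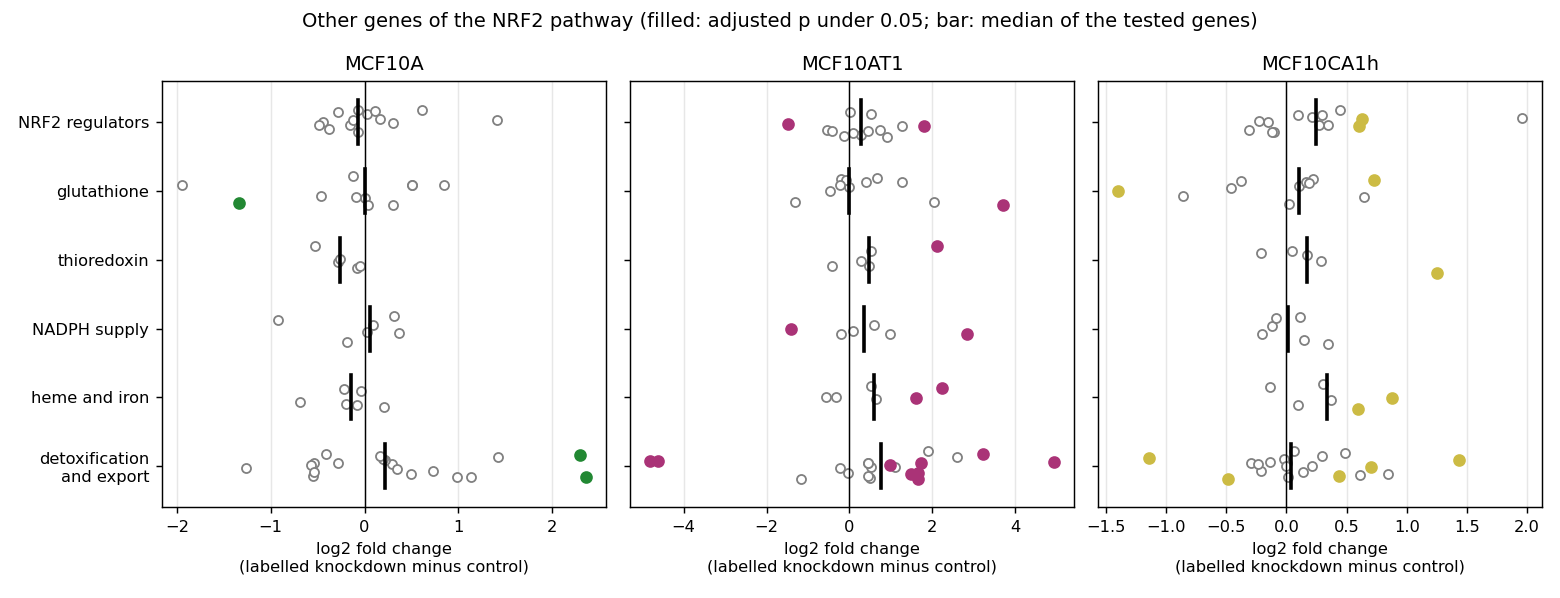
Log2 fold change of the labelled knockdown against the control for the tested NRF2 regulators and for 5 groups of other NRF2 targets in the 3 lines, with 1 point per gene, filled where the adjusted p was under 0.05, and a bar at the median of the group. The axes differ in range between the lines. In MCF10AT1 12 targets lie above 0 and 3 below among the filled points, in MCF10CA1h 7 and 3, and in MCF10A 2 and 1.

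Antioxidant enzymes that are not on the NRF2 list were set beside it. None of 13 tested was called in MCF10A, where limma gave 2 an unadjusted p under 0.05, and none of 14 in MCF10AT1, where limma gave 0 of them such a p. In MCF10CA1h, glutathione peroxidase 1 (GPX1) rose by 0.52 ± 0.13 (adjusted p = 0.0269), and catalase (CAT) and the mitochondrial peroxiredoxin PRDX3 fell by 0.46 ± 0.10 (adjusted p = 0.0147) and 0.36 ± 0.09 (adjusted p = 0.0288). In the aldo-keto reductase family as a whole, 1 of 9 tested genes was called in MCF10A (AKR1B10), 3 of 11 in MCF10AT1 (AKR1C1, AKR1C3 and AKR1B1, all higher) and AKR1B1 higher with AKR1C3 lower among 9 in MCF10CA1h. Beside the counts of both lists, 2.65%, 13.0% and 12.8% of all genes were called in MCF10A, MCF10AT1 and MCF10CA1h. AKR1B1, the close relative of AKR1B10, rose by 1.72 ± 0.31 in MCF10AT1 (adjusted p = 0.00784), the line in which AKR1B10 was at 0.07 ± 0.55 (adjusted p = 0.952).

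The genes whose 6 group means were most like those of a member were looked up among 12451 genes, as a description over 6 points that share their libraries. For NQO1 they were HSD17B1 (Pearson r = 0.9974), CLUAP1 (0.9972) and SLC3A2 (0.9949). HSD17B1, which makes oestradiol from oestrone, had means of 92.9 and 168 in the MCF10A control and labelled knockdown, 202 and 1033 in MCF10AT1 and 360 and 348 in MCF10CA1h. SLC3A2, the heavy chain that the cystine importer uses, went from 10180 in the MCF10A control to 18050 in the MCF10AT1 labelled knockdown. For HMOX1 they were SRA1 (0.9996), KDELR1 (0.9949) and GSTO1 (0.992), the last a glutathione transferase, and for AKR1C1 PRR3 (0.9992), LBHD1 (0.9965) and CYP4B1 (0.9961).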

How the data were processed

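RNA from 18 libraries of 6 groups was sequenced by the authors from both ends, pseudo-aligned with kallisto 0.46.1, summed to genes with tximport and normalized with DESeq2 1.26.0 in R 4.1.1, for hg38, per the submitters' processing notes and methods. The deposited values are a signal, normalized counts, not read counts: between 30.0% and 53.6% of low values (under 20) per library lay within 2% of whole multiples of the commonest low value, so whole reads were not recovered and no count test was run. Of the rows, 24639 hold neither a gene ID nor values and 7 a lone number, and these were left out. Of 35933 genes, 35894 had a symbol.

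Values were tested as log2(normalized count + 1) with limma 3.58.1 (intensity trend, two-sided) in R 4.3.3, keeping genes whose mean over the fitted libraries was 10 or more, with Benjamini-Hochberg adjustment over all genes tested and a threshold of 0.05. Each line was fitted alone; differences between lines and orders of groups came from 1 fit of 18 libraries, and the controls from their own fit. The fits were tested on simulated data first. METTL3 was also tested by exact permutation of 3 libraries against 3, which cannot go below 0.1 and gave p = 0.3, 0.3 and 0.1. Other values used Python 3.11.15, pandas 2.3.3, NumPy 2.4.6 and Matplotlib 3.10.9.

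The members and the 12 lists beside them were chosen with earlier results of these data known. The text names all members, METTL3, NFE2L2, KEAP1 and called regulators, AKR1C3, up to 5 called genes per list and line with the largest change, and the 3 genes most like NQO1, HMOX1 and AKR1C1. The result of 1 listed gene is not reported here. Replicate letters were checked by the correlation of same-letter deviations from the group means over genes: 0.233, 0.227 and 0.13 in MCF10A, all over 0.1, so the letters were taken to pair the libraries there and the blocked value is given where it changes a call. In MCF10AT1 (0.097, 0.272 and 0.473) and MCF10CA1h (-0.038, 0.019 and 0.037) they were not. Alternatives were other pseudocounts, filters, scalings and thresholds, no trend, a joint fit, the block, summed AKR1C genes and each library left out. A fit of MCF10AT1 replicates a and b and a block within each line were added after the data were seen.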

Additional observations from a re-analysis of the deposited data

Results flagged for a closer look

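Of the 9 members, 5 had an effect of the labelled knockdown that differed between lines in a test of the difference itself (limma, 1 fit of 18 libraries, adjusted over all genes), beside 28.8% of 15897 genes called in 1 or more of the 3 pairs of lines. The shares for the single pairs were 21.6% for MCF10AT1 and MCF10A, 5.34% for MCF10CA1h and MCF10A and 18.2% for MCF10CA1h and MCF10AT1. Between MCF10AT1 and MCF10A the effect on NQO1 was 2.21 higher on the log2 scale (adjusted p = 6.04e-05), that on HMOX1 2.85 higher (adjusted p = 0.00131) and that on AKR1B10 differed by -2.87 (adjusted p = 0.00169). Between MCF10CA1h and MCF10A, AKR1B10 differed by -2.83 (adjusted p = 0.00773). Between MCF10CA1h and MCF10AT1, NQO1 differed by -3.06 (adjusted p = 2.09e-06), AKR1C1 by -2.30 (adjusted p = 0.0028) and AKR1C2 by -1.29 (adjusted p = 0.0245). The call for AKR1C2 was lost in 5 of 29 alternatives, in 4 of which 1 library was left out (adjusted p up to 0.0679); the other 6 differences kept theirs in every alternative run. For HMOX1 between MCF10AT1 and MCF10A, all 3 labelled knockdown libraries of MCF10AT1 were above its controls, while those of MCF10A overlapped with theirs, at a log2 fold change of -1.19.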

How the results depend on the processing

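For the members, MCF10A had 1 called, and 2 with a pseudocount of 5 or the joint fit of 18 libraries, 3 with the replicate block, and 0 with no filter or an adjusted p under 0.01. MCF10AT1 had 3, and 1 with no filter or an adjusted p under 0.01. MCF10CA1h had 1, and 2 with equal sums or the block (not paired there), and 0 with the joint fit or when the log2 fold change had to reach 1. The difference between MCF10AT1 and MCF10A had 3 members, and 5 with the block within each line. That between MCF10CA1h and MCF10A had 1, and 2 with equal sums and 4 with that block. The shares of all genes called for these differences with that block are not given. With each library left out the counts ran from 0 to 4, 1 to 3 and 1 to 3 in MCF10A, MCF10AT1 and MCF10CA1h, and from 3 to 5 and 1 to 2 for those differences, and MCF10CA1h controls against MCF10AT1 had 1 to 4. For the differences and the controls, no share of all genes with a library left out is given. Those ranges are thus not read as results about the members. The libraries whose absence moved a count by over 1.5 times were, in MCF10A, controls a and b and labelled knockdown a and c, in MCF10AT1, control a and labelled knockdown b, and in MCF10CA1h, labelled knockdown b. For the differences they were MCF10AT1 control b, labelled knockdown c, and MCF10A labelled knockdown b, and for the controls MCF10AT1 c.

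Over all genes, MCF10A had 409 called, and 117 with no filter, 237 with no trend, 1172 with the block, 45 at an adjusted p under 0.01, and 52 to 1418 with 1 library left out. MCF10AT1 had 2091, and 3939 with the block, 1010 at an adjusted p under 0.01, 5146 in the joint fit, and 1020 to 2439 with 1 left out. MCF10CA1h had 1929, and 606 with no filter, 1123 with no trend, 799 at an adjusted p under 0.01, 669 with a log2 fold change of at least 1, 248 in the joint fit, and 1089 to 1785 with 1 left out. Leaving out a library also leaves fewer degrees of freedom, and for the other settings the cause was not tested.

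Signs turned only for member values that had not passed the threshold. With equal sums the log2 fold changes of AKR1B10 and SRXN1 in MCF10AT1 were -0.092 and -0.037, that of TXNRD1 in MCF10CA1h -0.032, the MCF10AT1 minus MCF10A difference of GCLM -0.17, and GCLM in the MCF10CA1h against the MCF10AT1 control 0.045. With replicates a and b alone, TXNRD1 and SRXN1 in MCF10AT1 were 0.031 and -0.19. With 1 library left out, the ranges in MCF10AT1 were -0.60 to 0.26 for GCLM, -0.39 to 0.40 for AKR1B10, -0.58 to 0.59 for TXNRD1 and -0.25 to 0.39 for SRXN1. In MCF10CA1h they were -0.16 to 0.32 for GCLM, -0.010 to 0.43 for HMOX1 and -0.11 to 0.20 for TXNRD1. For MCF10AT1 minus MCF10A they were -0.35 to 0.50 for GCLM, -0.0003 to 0.53 for AKR1C2 and -0.77 to 0.40 for TXNRD1, and for MCF10CA1h minus MCF10A -0.30 to 0.006 for TXNRD1. For MCF10CA1h minus MCF10AT1 they were -0.15 to 1.12 for GCLC, -0.13 to 0.73 for GCLM, -0.28 to 0.51 for AKR1B10 and -0.56 to 0.60 for TXNRD1. Among controls, MCF10AT1 against MCF10A gave -0.82 to 0.12 for GCLC and -0.27 to 0.47 for GCLM, MCF10CA1h against MCF10A -0.17 to 0.37 for GCLM, and MCF10CA1h against MCF10AT1 -0.38 to 0.35 for GCLM and -0.052 to 0.45 for HMOX1. Where AKR1C1, AKR1C2 and AKR1C3 were summed, they had no value of their own.

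With the replicate block, GCLC and NQO1 in MCF10A passed (adjusted p = 0.0328 and 0.0181), as did AKR1C2 in MCF10CA1h (0.04). Depth per gene is unknown, so how far low values such as AKR1B10 in the MCF10A controls are limited by counting was not estimated.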
